A study of Mus musculus with 16 samples.

Results

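Very broad open domains are intervals of mouse haematopoietic stem cell (HSC) chromatin chosen by the width of their ATAC-seq peaks. Peaks of all 16 libraries on chromosomes 1 to 19 and X were merged wherever they overlapped by 1 bp or more, which gave 37108 regions. A region was taken as a broad domain where at least 4 of the 16 libraries held a single peak of 2500 bp or wider in it. The rule was met by 569 regions, 1.53% of all, and 445 of them had a peak of some width in all 16 libraries. They held 87.3% of the 5818 peaks of 2500 bp or wider, and another 463 regions held such a peak in 1 to 3 libraries only. Since width chose the domains, widths over the 16 libraries are given as description, without a test.

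HSCs were sorted from male B6 mice and 10000 cells were transposed per library with the Omni-ATAC protocol. The 16 libraries form 4 groups of 4. Young pre libraries came from pools of 3 to 4 donors aged 8 to 12 weeks, and old pre libraries from 1 donor each aged 24 months. For the young post and old post libraries, 1000 HSCs of the same donors were transplanted with 300000 Sca-1-depleted BJ helper marrow cells into 5 lethally irradiated young BJ recipients, and HSCs were taken from the pooled marrow of the 5 recipients after 3 months. Pre and post libraries of an age and number share their donors. The labels name neither the sorting markers nor a donor marker for the post libraries, so donor HSCs cannot be told apart there from HSCs of recipient or helper origin. Pre and post libraries were transposed on different days, so stage and day cannot be told apart in any comparison of post with pre.

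ATAC-seq reads out where the transposase Tn5 can cut DNA, which is where nucleosomes are displaced or loosely bound. At most promoters and enhancers this is a short stretch next to the start site or the bound factors. Much longer accessible stretches are known from genes with very active polymerases, where accessibility runs into the gene body, and from dense groups of enhancers at transcription factor genes that define a cell type. In HSCs such genes include those of the Gata2, Tal1, Lyl1 and Lmo2 regulatory complex, which holds stem cell identity, and of Meis1, Mecom and Hlf. Immediate early genes such as Fos, Jun and Egr1 are a further known kind: short, poised genes that are induced without new protein synthesis by growth factors and stress, cell isolation included.

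The DNA just before the start sites of 6 domain genes is shown because the results turn on these genes: 4 immediate early genes whose whole body lay in the domain (Jun, Fos, Junb and Dusp1), an HSC transcription factor (Gata2) and the gene of the widest domain (Ddx5). The sequences are RefSeq's for GRCm38.p6 (mm10), the 250 bases before the start site, 5′ to 3′ on the gene's strand. They lie at chr4:95052223-95052472 (minus strand) for Jun, chr12:85473640-85473889 (plus) for Fos, chr8:84978749-84978998 (minus) for Junb, chr17:26508473-26508722 (minus) for Dusp1, chr6:88198414-88198663 (plus) for Gata2 and chr11:106789186-106789435 (minus) for Ddx5. Capitals mark matches, on either strand, to 5 motifs searched by their letters, the cyclic AMP response element TGACGTCA, the AP-1 site TGANTCA, the TATA box TATAAA, the CCAAT box CCAAT and the ETS site CCGGAAG, or to the CArG box.
Jun: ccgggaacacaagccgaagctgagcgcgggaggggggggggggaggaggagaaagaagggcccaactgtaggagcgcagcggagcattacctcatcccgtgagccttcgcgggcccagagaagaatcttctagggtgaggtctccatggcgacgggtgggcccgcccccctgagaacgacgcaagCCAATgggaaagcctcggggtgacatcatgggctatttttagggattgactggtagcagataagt
Fos: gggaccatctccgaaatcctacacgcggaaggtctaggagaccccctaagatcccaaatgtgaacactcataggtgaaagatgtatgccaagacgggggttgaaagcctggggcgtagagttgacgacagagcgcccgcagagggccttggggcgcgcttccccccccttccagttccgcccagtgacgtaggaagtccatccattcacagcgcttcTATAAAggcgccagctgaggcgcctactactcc
Junb: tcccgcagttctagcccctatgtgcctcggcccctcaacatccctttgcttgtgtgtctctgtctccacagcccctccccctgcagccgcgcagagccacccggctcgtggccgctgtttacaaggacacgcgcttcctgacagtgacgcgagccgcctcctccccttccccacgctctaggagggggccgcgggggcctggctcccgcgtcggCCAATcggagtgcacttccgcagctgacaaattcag
Dusp1: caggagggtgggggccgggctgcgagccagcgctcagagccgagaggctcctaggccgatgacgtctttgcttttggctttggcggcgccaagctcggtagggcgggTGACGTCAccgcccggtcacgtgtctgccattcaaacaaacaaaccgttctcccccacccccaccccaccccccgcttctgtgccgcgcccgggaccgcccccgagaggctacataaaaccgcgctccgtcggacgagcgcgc
Gata2: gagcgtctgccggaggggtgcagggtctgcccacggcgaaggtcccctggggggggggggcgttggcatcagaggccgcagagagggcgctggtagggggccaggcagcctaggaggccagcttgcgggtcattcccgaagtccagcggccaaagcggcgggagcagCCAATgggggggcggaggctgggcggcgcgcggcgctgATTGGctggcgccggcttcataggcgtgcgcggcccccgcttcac
Ddx5: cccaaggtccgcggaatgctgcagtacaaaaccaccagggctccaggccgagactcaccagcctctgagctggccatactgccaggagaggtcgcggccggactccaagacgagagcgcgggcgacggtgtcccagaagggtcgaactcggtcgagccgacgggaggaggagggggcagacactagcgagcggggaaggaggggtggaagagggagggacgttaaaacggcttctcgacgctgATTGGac
The printed Fos sequence held a TATA box starting 33 bases before the start site. Jun and Junb each held a CCAAT box, 65 and 36 bases before it, and Dusp1 a cyclic AMP response element at 143 bases. Gata2 held 2 CCAAT boxes, at 83 and 45 bases, and Ddx5 a CCAAT box at 7 bases. The printed stretches were rich in G and C, from 58.4% in Fos to 74.0% in Gata2, and held 15 (Jun and Fos) to 28 (Dusp1) CpG dinucleotides.

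Over windows of 300 bases (250 before and 50 after the start), 549 start sites of 435 protein-coding genes lay in broad domains and 4072 sites of 3491 genes in other regions called in all 16 libraries. A TATA box was present in 11.1% of the sites in domains, in 4.27% of those in the other regions and in 12.7% of all 21045 sites matched. For the 22 sites of immediate early genes in domains the share was 27.3%. The CCAAT box was present in 39.0% of the sites in domains against 50% in the other regions (38.5% of all), and the ETS site in 13.5% against 21.6% (11.7% of all). Shares for the cyclic AMP response element were 3.10% and 3.76% (2.26% of all), for the AP-1 site 4.74% and 3.51% (7.04%) and for the CArG box 1.82% and 1.35% (1.54%). The shares of TATA, CCAAT and ETS matches in domains were thus close to those of all start sites, and the other regions called in all libraries lay apart from both. Median GC content was 63.3% in domains, 62.0% in the other regions and 56.7% over all sites. A match is a run of letters and not a bound site.

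The libraries differed widely in how many domains they showed as broad. In young pre libraries 1 to 4, 533, 256, 301 and 15 domains held a peak of 2500 bp or wider, and in old pre libraries 303, 486, 152 and 18. The 4 young post libraries showed 478, 429, 488 and 504, and the old post libraries 194, 380, 383 and 41. Replicate 4 of young pre, old pre and old post had the shortest peak lists of the series (9636, 5711 and 14030 peaks, against 17322 to 32557 in the other 13) and the fewest broad domains, while the young post libraries, with 30807 to 32557 peaks, were the most alike. No read counts were used, so the depth behind each list is unknown, and a missing or narrow peak is no measure of closed chromatin. Median domain width, with a missing peak counted as 0, ran from 654 bp in old pre 4 to 3197 bp in young pre 1.

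**Figure D1:**
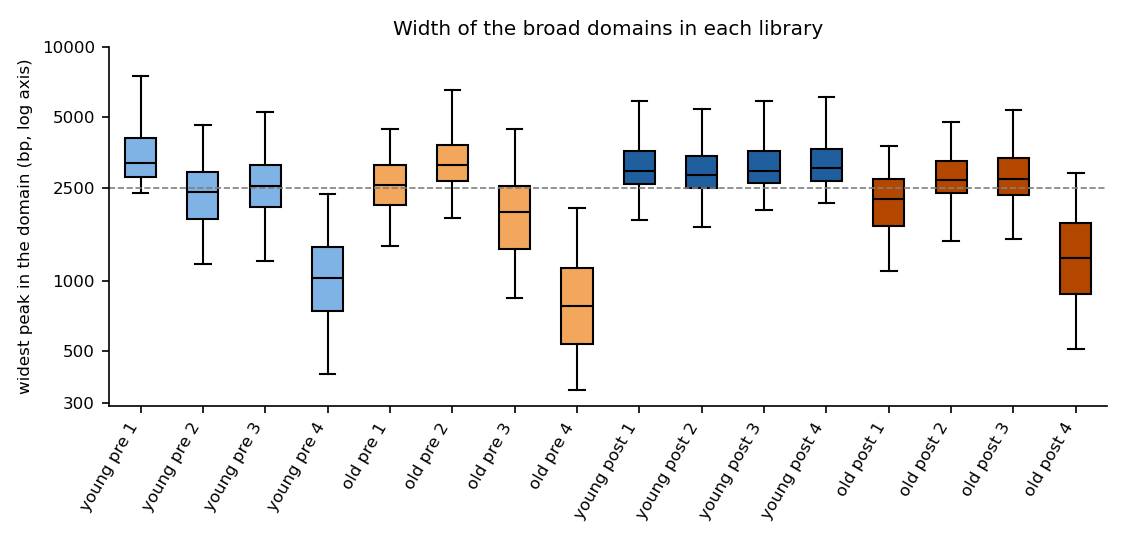
Width in bp (log axis) of the widest peak in each broad domain, by library; boxes give the quartiles with the median, whiskers the 5th and 95th percentiles, domains without a peak in a library are left out, and the dashed line is 2500 bp. Replicate 4 of young pre, old pre and old post lies below the line for most domains, and the 4 young post libraries lie close together.

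Widths within each library, which the choice of the domains used, are given as description. Over domains and other regions called in all 16 libraries, the median domain was between 1.51 times (old pre 4) and 2.31 times (old pre 2) as wide as the median of the others, and of the 100 widest peaks of a library 74 to 100 lay in domains. The same domain could appear as a single peak or as several: 96 of 569 called domains held more than 1 peak in young pre 1, 323 of 569 in young pre 2, 310 of 557 in old post 4 and 151 of 446 in old pre 4. Domains held 7.60% (young post 1) to 16.5% (old pre 4) of all bases under peaks. The widths of domains also varied more between libraries than those of other regions, with a median SD of 0.369 on the log2 scale after quantile normalisation (445 domains) against 0.227 (4817 regions).

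The widest domain by median over the 16 libraries lay at Ddx5 (chr11:106774898-106790128), which encodes an RNA helicase of splicing and microRNA processing. Its widest peak measured 14809, 6488, 15226 and 2455 bp in young pre 1 to 4 and 5001, 11692, 11485 and 2504 bp in old pre 1 to 4. After transplantation it measured 11632, 11640, 11647 and 11658 bp in the young libraries and 5058, 4828, 11636 and 2985 bp in the old ones. The 4 young post values nearly coincided, while the other 3 groups spread widely and overlapped them. In a bulk library, fewer cells with an open domain and a shorter open stretch in each cell cannot be told apart. In 9 libraries the peak covered the whole gene. Over the 15 libraries whose peak covered the start site, it reached a median of 879 bp upstream of that site and 10715 bp downstream.

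Next in width came 2 long non-coding RNA genes that lie close together on chromosome 19 and organise nuclear bodies. Malat1 (chr19:5792963-5804933) had a median width of 11141.5 bp and ranged from 1731 bp in old post 4 to 11783 bp in old pre 2. Neat1 (chr19:5838166-5850649) had a median of 10103 bp and was broad in every library, from 5988 bp in old post 4 to 11473 bp in young pre 1. Neat1 was also the domain whose normalised width varied least, with an SD of 0.12 on the log2 scale over the 16 libraries.

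The other 9 of the 12 widest domains lay at Fosb, in Anks1, and at Dusp1, Inka1 with Uba7, Egr1, Lyl1, Ier2, Fos and Brd2, with medians from 9903.5 bp (Fosb) to 6904.5 bp (Brd2). Of these 9, 5 are immediate early genes, Lyl1 is an HSC transcription factor gene, and Brd2 encodes a reader of acetylated histones. The Anks1 domain (chr17:28006381-28018445) lay inside that gene, over the non-coding gene Gm35290, and ranged from 1026 bp in old pre 4 to 11723 bp in young pre 1.

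**Figure D2:**
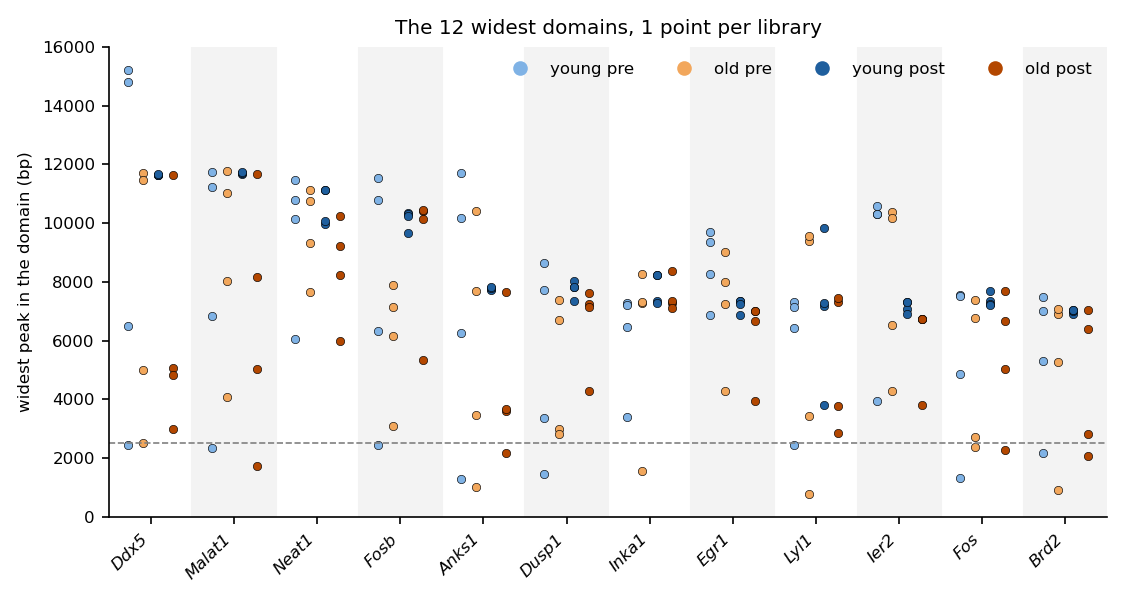
Width in bp of the widest peak for the 12 domains with the largest median width, with 1 point per library coloured by group and a dashed line at 2500 bp. The young post points of Ddx5, Malat1 and Anks1 nearly coincide, and the lowest points of most domains are replicate 4 of young pre, old pre or old post.

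Immediate early genes were the best represented of the gene lists. Of 45 such genes, 30 (66.7%) overlapped 31 broad domains, while 625 of 21631 protein-coding genes (2.89%) did so. A region called in all 16 libraries overlapped 39 of the 45 (86.7%) and 24.3% of all protein-coding genes. The list was drawn up with earlier results of these data known, so its share describes these genes and is no independent evidence. Their domains had a median width of 3721 bp, against 2560.5 bp for all 569. In the libraries, 20 to 31 of the 31 domains were broad, apart from 6 in young pre 4, 8 in old pre 4 and 10 in old post 4.

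AP-1 subunits pair through leucine zippers and bind as dimers, and Fosb and Fos were among the 12 widest domains. Jun (chr4:95047801-95054305) was broad in all 16 libraries, at 6495, 5644, 6037 and 2965 bp in young pre and 5256, 6505, 6039 and 5017 bp in old pre. It measured 6092, 6096, 6209 and 6204 bp in young post and 6054, 6049, 6136 and 4424 bp in old post, so that all groups overlapped. Junb (chr8:84974793-84980617) was likewise broad in all 16, from 3133 bp in young pre 4 to 5816 bp in young pre 2. The Junb gene lay whole inside the peak in all 16 libraries and the Jun gene in 14.

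Fos (chr12:85471806-85479654) was broad in 13 libraries, at 7549, 4850, 7536 and 1337 bp in young pre, 2715, 7383, 6776 and 2374 bp in old pre, 7355, 7693, 7233 and 7196 bp in young post and 6655, 5034, 7704 and 2271 bp in old post. Only the 3 libraries with the shortest lists fell under 2500 bp. Fosb measured 11547, 6342, 10772 and 2447 bp in young pre, 3084, 7136, 7902 and 6152 bp in old pre, 10354, 10305, 10231 and 9660 bp in young post and 10147, 10426, 10432 and 5353 bp in old post. In the 11 libraries whose peak covered the Fosb start site, it began a median of 631 bp upstream. It ran a median of 9616 bp downstream, past the end of this 7423 bp gene. Jund had a median width of 6396.5 bp, and Fosl2, a further Fos relative, was at the narrow end with 2415 bp and 7 broad libraries.

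Ier2, a short nuclear protein gene of the same response (chr8:84655282-84665968), was broad in all 16 libraries. It measured 10598, 10311, 10302 and 3935 bp in young pre and 6540, 10391, 10186 and 4276 bp in old pre, but 7298, 7092, 7315 and 6906 bp in young post and 6742, 6731, 6751 and 3812 bp in old post. In 5 of the 8 pre libraries the domain was wider than in any post library. Egr1, a zinc finger factor, was broad in all 16 as well, at 9705, 8268, 9351 and 6872 bp in young pre and 4268, 7985, 9010 and 7252 bp in old pre. Its post widths were 7348, 7338, 7256 and 6878 bp in young and 6999, 6683, 7015 and 3959 bp in old libraries, inside the range of the pre widths except in old post 4. The tests on domains chosen without the libraries compared, given further on, did not pass for either gene.

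Genes that end the response were present too. Dusp1, a phosphatase of MAP kinases (chr17:26500858-26509725), measured 8627, 3375, 7725 and 1442 bp in young pre, 2984, 6698, 7376 and 2829 bp in old pre, 7826, 8026, 7837 and 7351 bp in young post and 7614, 7262, 7140 and 4282 bp in old post. Zfp36 and its relatives Zfp36l1 and Zfp36l2, which bind AU-rich elements and destabilise messenger RNA, had domains with medians of 5144.5 bp (Zfp36), 3932 bp (Zfp36l1), and 4466 and 2810 bp (both domains of Zfp36l2). Mcl1, an inhibitor of apoptosis, had a median of 6083 bp and its widest peak, 11962 bp, in young pre 1. The nuclear receptor gene Nr4a1 had a narrower median of 2311 bp and was broad in 5 libraries, young pre 1, 2 and 3 and old pre 2 and 3. Its peaks were 11260 bp in young pre 1 and 11204 bp in old pre 3 and 1934 to 2455 bp in the 4 young post libraries.

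Of 33 transcription factors known from HSCs, 18 (54.5%) overlapped 20 broad domains and 21 (63.6%) a region called in all 16 libraries. Lyl1 (chr8:84698581-84708574), a basic helix-loop-helix factor, had the widest of them, with a median of 7155.5 bp. Its peak measured 7301, 6416, 7143 and 2442 bp in young pre, 9376, 9571, 3427 and 776 bp in old pre, 7168, 3793, 9850 and 7282 bp in young post and 3781, 7310, 7439 and 2837 bp in old post. Every group thus spread widely, and no group stood clear of another.

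Lmo2 (chr2:103968223-103985607), the bridging protein of the complex with Tal1 and Gata2, varied most of all domains called in every library, with an SD of 1.25 on the log2 scale. It measured 9588, 1558, 3382 and 372 bp in young pre, 4844, 9633, 3158 and 319 bp in old pre, 5311, 5320, 9568 and 9611 bp in young post and 2373, 3166, 5087 and 424 bp in old post. The same widths recurred in different groups, such as 9588 bp in young pre 1 and 9568 bp in young post 3, or 3158 bp in old pre 3 and 3166 bp in old post 2. Gata2, a zinc finger factor needed for HSC survival, had a median of 4060.5 bp, a widest peak of 10326 bp in old pre 2 and no peak in old pre 4. Tal1 was narrower, with a median of 2407 bp and 6 broad libraries.

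Meis1, the homeobox partner of Hox proteins, held 2 domains. The wider measured 4876, 4901, 4492 and 1116 bp in young pre, 4579, 5050, 4536 and 774 bp in old pre, 4721, 4875, 4852 and 4753 bp in young post and 3162, 4719, 4859 and 1973 bp in old post. Outside replicate 4 of young pre, old pre and old post, and old post 1, it kept to 4492 to 5050 bp in all groups. Mecom, a zinc finger factor that is needed to maintain HSCs, measured 4059, 3679, 4032 and 1317 bp in young pre, 3881, 3924, 3662 and 701 bp in old pre, 4043, 3864, 4057 and 4057 bp in young post and 3612, 4021, 4056 and 2571 bp in old post. In the 13 libraries whose peak covered the start site, the Mecom peak ran a median of 917 bp upstream of it and 3124 bp into the gene.

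Further members of the list were Myc and Mycn, Nkx2-3, Foxo3, Bcl11a with 2 domains, Fli1, Zfpm1, Etv6, Gfi1, Hoxa9, Erg and Hlf, with medians from 4236 bp (Myc) to 1892.5 bp (Hlf). Hlf, a marker of long-term HSCs, had a domain that was broad in 5 libraries and held no peak in young pre 4, old pre 4 and old post 4, although other peaks at the gene were called in 2 of these 3. Of the 39 genes of the Hox clusters only Hoxa3 and Hoxa9 overlapped a domain.

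**Figure D3:**
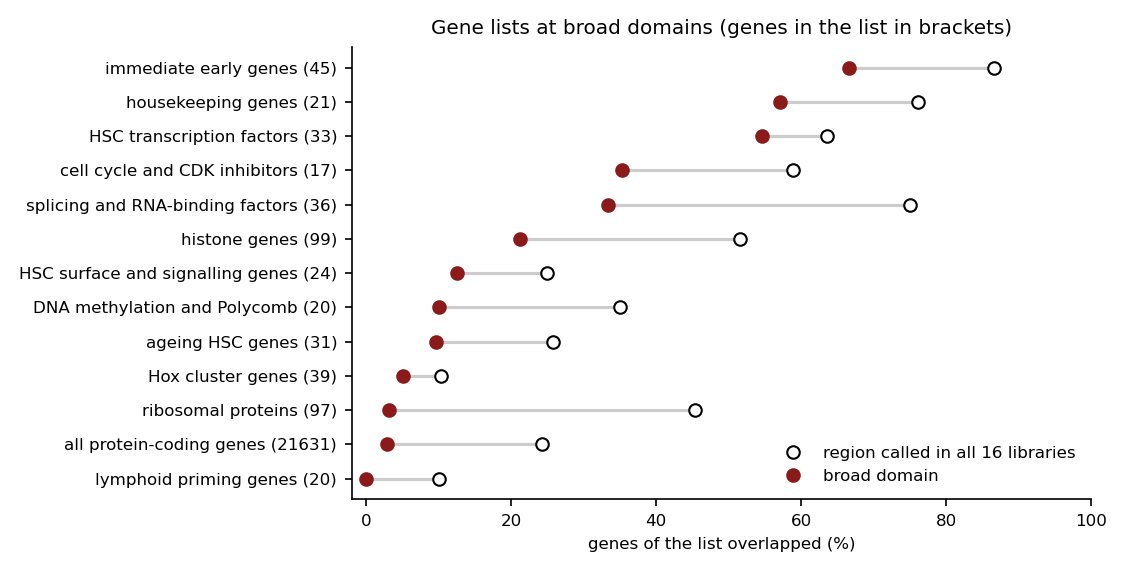
Share of the genes of each list, in percent, that overlap a broad domain (filled) or any region called in all 16 libraries (open), for lists of 15 genes or more. Immediate early genes, housekeeping genes and HSC transcription factors reach 54.5% to 66.7% for domains, and ribosomal protein genes 3.09% although 45.4% of them overlap a region called in all libraries.

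Housekeeping genes and factors of RNA splicing were represented as well. Of 21 housekeeping genes, 12 (57.1%) overlapped a domain, among them Eef1a1 (elongation factor, median 5082 bp), Ubb (ubiquitin, 4499.5 bp), Gapdh (glycolysis, 3811.5 bp) and Actb (actin, 3566 bp). Of 36 splicing and RNA-binding factors, 12 (33.3%) overlapped a domain, with 27 (75%) at a region called in all libraries, and after Ddx5 the widest was Tra2b with 3650 bp. Ribosomal protein genes, which are highly transcribed too, overlapped a domain in 3 of 97 cases (Rpl7, Rpl36 and Rpl41), against 44 of 97 at a region called in all libraries.

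Histone genes were in domains in 21 of 99 cases, but these shared 8 domains, most of them in the cluster on chromosome 13. The domain of H2ac8 measured 1920, 1510, 1418 and 1163 bp in young pre and 1672, 4765, 1249 and 698 bp in old pre. It measured 6741, 4740, 6650 and 6699 bp in young post and 1574, 1563, 4816 and 1257 bp in old post. All young post libraries were therefore above the young pre libraries there, while old pre and old post overlapped each other. Of the 8 histone domains, 7 to 8 were broad in the young post libraries, 0 to 4 in young pre, 1 to 6 in old pre and 1 to 7 in old post, beside 429 to 504 of all 569 domains in young post and 15 to 533 in young pre. The H2ac8 domain was broad in 6 libraries, 4 of them young post. Width chose these domains, so the counts are a description with no test.

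Other lists had fewer genes in domains. Of 24 HSC surface and signalling genes, Cxcr4, Esam and Socs2 overlapped one, and of 20 genes of DNA methylation and Polycomb control, Dnmt3a and the demethylase gene Kdm6b, which held 2. Cell cycle genes were Ccnd2 and Ccnd3, Cdk6, Cdkn1a, Cdkn1b and Trp53, 6 of 17. Of 31 genes of HSC ageing, Alcam, Egr1 and Klf6 overlapped a domain, and of 9 self-renewal and RNA regulators, Hnrnpa2b1. None of 20 lymphoid priming genes did, with 2 of them at a region called in all libraries.

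As a check of the cell type, all 8 HSC markers had a peak in or within 1 kb of the gene in at least 13 libraries, and Hlf, Mecom and Meis1 overlapped domains. Of 29 markers of T, B, NK, granulocyte, monocyte, erythroid, megakaryocyte, endothelial and stromal cells, 0 overlapped a domain, 15 had a peak in some library and 14 in none. Among the 14 were Cd3e, Cd8a, Ms4a1, Elane, Mpo, S100a8, Hba-a1 and Cdh5. Peaks at Klf1, Epor, Pf4 and Itga2b were present in all 16 libraries, and those at Cd3d and Csf1r in 15. A peak at a gene is accessibility and not expression, so these counts bear on the label only in part.

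Broad domains lay mostly at genes. Of the 569, 436 (76.6%) were within 1 kb of an end of a protein-coding gene, 89 inside a gene and 39 elsewhere within 100 kb of one, and 5 were farther away. Of other regions called in all 16 libraries, 71.7% were at gene ends. A RefSeq start site lay in 71.9% of domains against 66.0% of those other regions, and 2 or more start sites in 31.3% against 22.2%. A whole protein-coding gene fitted into 9.49% of domains (54) against 0.706% of the others. The shares at gene ends, with start sites and with whole genes all rise with width by construction. The median region was 3528 bp wide for domains and 1596 bp for the others, so the differences between these shares are a description.

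Around start sites, the reach of a peak on either side is part of the width that chose the domains, so its length is a description. In 378 domains with a start site of a protein-coding gene, the peak reached a median of 1137 bp upstream and 1430.75 bp downstream, against 619.75 and 621 bp in 3037 other regions. The downstream arm was the longer one in 60.1% of domains and 49.0% of the others. The summit, the highest point of a peak, lay within 250 bp of the start site in 56.3% of domains and 84.4% of the others. The summit of the widest peak in a domain moved by a median SD of 278 bp between libraries, or 7.72% of the region's width. In other regions called in all 16 it moved by 26.4 bp or 1.70%. The part of domains split into several peaks in this movement was not tested. The median percentile of the summit height within a library was 89.6 for domains and 88.2 for the others. Spearman's rho of width and summit height was 0.365 across the 5262 regions called in all 16 libraries, which share the same libraries.

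Genes under 5 kb made up 18.8% of those at domains and 11.4% of those at the other regions. In 27 domains a gene was covered whole by the peak in at least 4 libraries (7.14% of 378, against 0.560%), a share that also rises with width by construction. Covered in the most libraries were Junb and the histone gene H4c1 (16), then LOC108167694 (15) and Rpl41, Inka1 and Jun (14). Ier3, Eif1, Dusp1, Dusp2, Lyl1, Fos, Fosb and Ddx5 were covered whole in 9 to 13 libraries. In the longer genes with a domain, such as Mecom (558464 bp) or Gata2 (13142 bp), the peak never covered the gene.

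**Figure D4:**
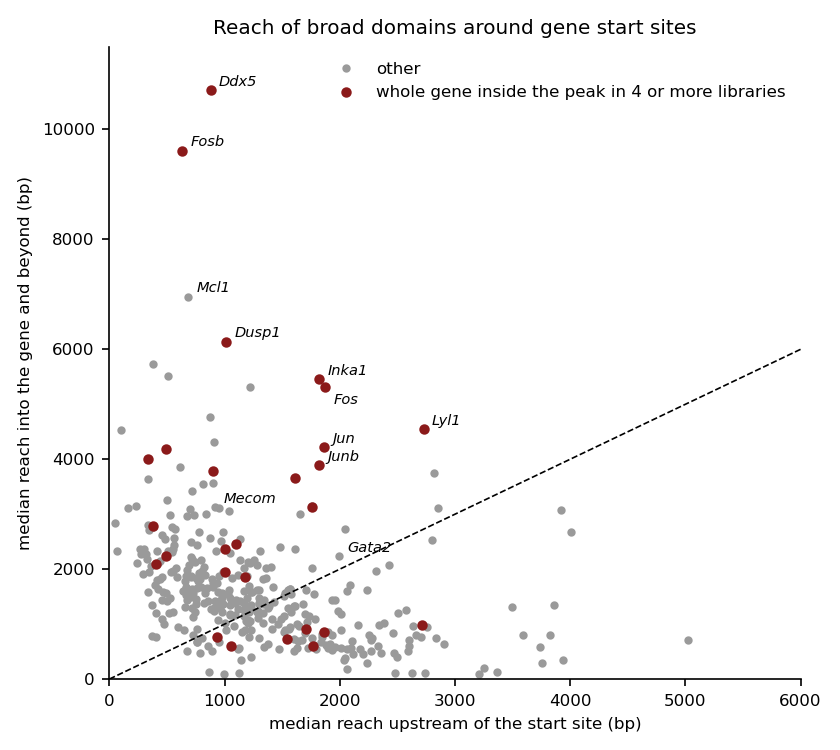
Median reach in bp of the domain's peak upstream of the start site (x) and downstream of it (y), 1 point per domain with a protein-coding start site, over the libraries whose peak covers that site; red points are domains in which the peak covers the whole gene in 4 or more libraries, and the dashed line marks equal reach. Ddx5 and Fosb reach furthest downstream, with 10715 and 9616 bp, and 60.1% of the points lie above the line.

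Some domains formed groups. At a gap of at most 50 kb, the 569 made up 513 separate intervals, of which 43 held 2 or more domains (99 in all) and 8 held 3 or more. The largest was at Adgrg1 and Adgrg3 on chromosome 8, adhesion receptor genes of which Adgrg1 (GPR56) is a surface marker of HSCs, with 5 domains in chr8:94979831-95022467. Groups of 4 lay at Ier3, Tubb5, Ppp1r18 and Ppp1r10 on chromosome 17, at Cxxc5 on chromosome 18, and at Cbfa2t3, a corepressor gene, on chromosome 8.

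Non-coding genes also overlapped domains. Their shares were not computed for other regions, and such overlap rises with width by construction. A long non-coding RNA gene overlapped 157 domains (27.6%), a microRNA gene 15, a transfer RNA gene 11 (29 genes in all), a small nucleolar RNA gene 5 and a small nuclear RNA gene 4. No gene of the RefSeq table overlapped 19 domains, and no protein-coding gene 52. The domain at Vmp1 also held Mir21a, and that at Ankrd10 Mir7238.

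A total of 9 domains were broad in all 16 libraries, Neat1, Jun, Junb, Ier2 and Egr1 among them. The other 4 hardly varied in width between long and short lists. The domain over Rn18s-rs5, a ribosomal RNA copy on chromosome 17 (chr17:39842950-39848874), measured 5923 bp in 15 libraries and 5925 bp in young pre 2. The domain over the pseudogenes Gm10222 and Gm10925 (chr1:24611488-24616233), which lie in a nuclear copy of mitochondrial DNA, measured 4742 to 4746 bp. A domain without genes on chromosome 14 (chr14:19415664-19419747) measured 3803 to 4084 bp, and one inside Myo3a (chr2:22587243-22590579) 2941 to 3337 bp. The treatment of reads that match several places is not given in the sources used here, so the values at repeated sequences such as Rn18s-rs5 and Gm10925 are uncertain.

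At the threshold, the fourth widest peak decided. It measured 2500 bp at Slc26a8, 2501 bp at Slc48a1 and 2503 bp near Mok, the domains just inside, and 2499 bp in Rreb1, 2498 bp at Tmem164 and 2497 bp near Bcor, the regions just outside.

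To compare groups, a domain was read only where the 8 libraries outside the comparison chose it alone, with a peak of 2500 bp or wider in at least 4 of them. Width (log2 of the widest peak) and summit height (log2 of the deposited −log10 p of the highest summit) were each tested with limma over all regions called in all 8 libraries compared, after quantile normalisation, with Benjamini-Hochberg adjustment over all regions tested. A region passed at an adjusted p under 0.05. With 2 measures and 4 comparisons, 8 such tests were made.

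For young post against young pre, paired by donor pool, 245 domains could be read. For width 0 of them passed, where 0.0222% of the 8992 regions tested passed as higher after transplantation and 0.0111% as lower. At an unadjusted p under 0.05 there were 36, of which 34 were wider after transplantation. The smallest adjusted p was 0.130, at Vmp1, a gene of autophagosome formation (chr11:86579860-86586012). Its peak measured 4101, 1626, 2363 and 506 bp in young pre and 5884, 5863, 5869 and 5843 bp in young post, a difference of 1.47 ± 0.26 (SE) on the normalised log2 scale. The median difference over the 245 domains was 0.12, against −0.03 over all regions, and the young pre libraries had shorter peak lists (9636 to 28323 peaks) than the young post libraries (30807 to 32557), a difference whose part in the result was not tested.

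For summit height in the same comparison, 4 of the 245 domains passed as higher and 2 as lower after transplantation, 1.63% and 0.816%, near the 1.35% and 1.21% of all 8992 regions that passed in each direction. The balance of directions depended on the settings: 0 passed as higher and 7 as lower with median centring, 6 and 13 without young pre 4, and 4 and 14 without young post 4. The start site of Klf9, a Krüppel-like factor gene (chr19:23141226, plus strand), lies in a separate domain that was not among those that passed. The domain called Klf9 here (chr19:23133585-23137034), upstream of that site over the non-coding gene 2410080I02Rik, was lower. Its −log10 p was 9.34, 8.93, 8.55 and 6.97 in young pre and 8.43, 7.82, 8.05 and 7.89 in young post, as deposited. After normalisation the difference was −0.25 ± 0.03 (SE, log2, limma adjusted p = 2.05e-04), and it passed in 12 of 13 alternatives. Among these, reading domains broad in at least 2 other libraries repeats the same fit, so its outcome was fixed in advance. The width of the Klf9 domain did not pass (−0.40 ± 0.21, limma adjusted p = 0.429). Without replicate 1 or 3 of either group, 1 domain passed as higher and 1 as lower. With the donor as a block, leaving out a pre library or its paired post library is nearly the same test.

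Hoxa3, a homeobox gene (chr6:52210962-52214045), was the other lower domain, by −0.14 ± 0.03 (limma adjusted p = 0.0154), with deposited values of 8.79, 8.40, 8.09 and 6.60 in young pre and 8.28, 8.01, 8.12 and 8.27 in young post. The deposited values overlap, so the difference is one of the normalised values. Leaving out young pre 1 or 3, or young post 1 or 3, took the adjusted p above 0.05, up to 0.12.

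Higher after transplantation, on the normalised scale, were Hspa8, a constitutive chaperone gene (0.09 ± 0.02, limma adjusted p = 0.0138), Adgrg1 (0.09 ± 0.02, 0.0267), Ankrd10 (0.08 ± 0.02, 0.0332) and Rn18s-rs5 (0.14 ± 0.02, 0.00355). The group of 5 domains at Adgrg1 and Adgrg3 holds several named Adgrg1, and only 1 of these was among those that passed. It is not the one over the Adgrg1 start site at chr8:94984399. At this Adgrg1 domain the deposited values were 9.69, 9.17, 9.09 and 7.96 in young pre and 10.5, 10.6, 10.8 and 11.0 in young post. All post libraries were above all pre libraries. At Ankrd10 they were 10.3, 9.39, 9.07 and 8.77 against 11.1, 10.6, 10.8 and 11.8, also without overlap. The Vmp1 values, 6.38 to 8.21 against 8.77 to 9.20, did not overlap either, and Vmp1 did not pass here. The share of all regions without such overlap was not counted. With median centring in place of quantiles, the calls at Hspa8, Adgrg1 and Ankrd10 were lost (limma adjusted p = 0.981, 0.0872 and 0.227), and the Hspa8 difference fell to 0.0024. They were also lost when young pre 1 or 3 or young post 1 or 3 was left out, with adjusted p up to 0.253 at Ankrd10 among these. As above, leaving out either library of a pair is nearly the same test. Without the donor block Hspa8 (0.193), Ankrd10 (0.164) and Rn18s-rs5 (0.14) did not pass, and with −log10 q Adgrg1 (0.0793) did not. With regions called in at least 6 of the 8 libraries, Adgrg1 (0.11) and Ankrd10 (0.0844) did not pass. Leaving out young pre 2 (Hspa8, 0.064) or young post 4 (Ankrd10, 0.0532) also ended a call. The Rn18s-rs5 call turned its direction with median centring, to −0.19 (limma adjusted p = 0.0327). Its deposited values were 15.66, 15.76, 15.12 and 13.55 in young pre and 15.03, 14.65, 15.06 and 14.86 in young post. Young pre 1, 2 and 3 thus lay above every young post library, opposite to the call, and young pre 4 below them. This domain ranked at percentile 99.94 to 99.99 within every library, and quantile normalisation sets values by rank.

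**Figure D5:**
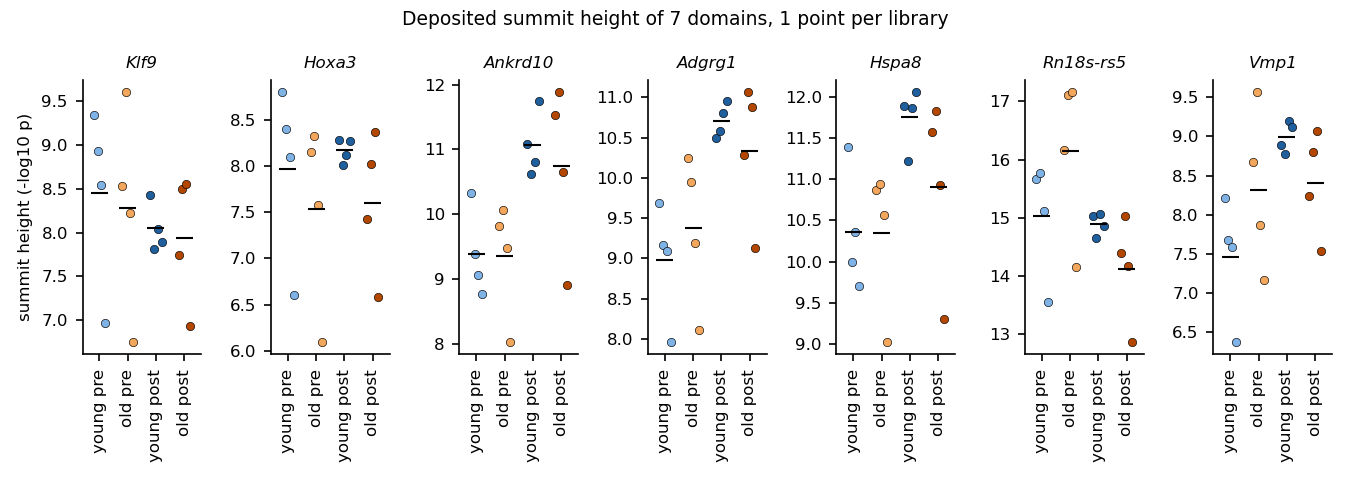
Deposited summit height (−log10 p) of the 7 domains whose normalised height passed in a comparison of groups, with 1 point per library, the group mean as a line and a separate linear axis for each domain. Adgrg1, Ankrd10 and Vmp1 show all young post above all young pre libraries, although Vmp1 did not pass in that comparison. The Rn18s-rs5 difference between young post and young pre changes direction with the scaling.

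For old post against old pre, 378 domains could be read and 0 passed for width (41 at an unadjusted p under 0.05, 28 of them wider after transplantation), as did 0% of all 5320 regions. With median centring 15 of 33 were wider and without the donor block 8 of 15. The smallest adjusted p, 0.231, was at Gadd45g, a stress response gene (chr13:51845468-51850023). Its peak measured 2068, 2038, 1254 and 298 bp in old pre and 2869, 4258, 4252 and 1133 bp in old post, a difference of 1.10 ± 0.16 on the normalised log2 scale. Each old post value was above that of the same donor before transplantation. For summit height 0 of 378 domains passed, with 68 at an unadjusted p under 0.05, of which 14 were higher, and 0.0564% of all regions passed as higher and 0.244% as lower. The smallest adjusted p, 0.0729, was at the Klf9 domain, at −0.18 ± 0.03, the direction seen in the young libraries. Without the donor block 6 domains passed as lower, and with median centring 4.

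For old pre against young pre, 353 domains were read and 0 passed for width, as did 0% of 5264 regions, with 4 domains at an unadjusted p under 0.05. For summit height 1 passed as higher in old pre, 0.283% against 0.342% of all regions. This was the Vmp1 domain, with deposited values of 8.21, 7.68, 7.59 and 6.38 in young pre and 8.68, 9.56, 7.87 and 7.16 in old pre. The difference was 0.18 ± 0.03 (limma adjusted p = 0.0340), but the groups overlapped before normalisation and the call passed in 4 of 15 alternatives. Among these 4, reading domains broad in at least 2 other libraries repeats the same fit. The call was lost when any single library other than old pre 3 was left out, with adjusted p from 0.0502 to 0.108. On transposition day 2 alone, which holds old pre 3 and 4 and young pre 1 to 3, it was 0.15 with an adjusted p of 0.227, and 0 of 354 domains passed for summit height, against 0.150% of all regions as higher and 0.0188% as lower.

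On that shared day 3 of 354 domains passed for width, all narrower in old pre, 0.847% against 0.132% of all 5320 regions tested. They were near Rab10, at −1.90 ± 0.25 (log2, limma adjusted p = 0.0357), in Atp8b2, at −1.72 ± 0.25 (0.0357), and at Adamtsl4, at −1.55 ± 0.25 (0.0471), named here after their values were seen. The median over the 354 domains was −0.27 against 0.04 over all regions. The old libraries of that day had 17322 and 5711 peaks and the young ones 28323, 23081 and 21371. The part of list length in these calls was not tested. Over all 8 pre libraries the differences were −1.16 near Rab10, −0.36 in Atp8b2 and −0.59 at Adamtsl4, each with an adjusted p of 0.9998.

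For old post against young post, 268 domains were read and 0 passed for either measure. For width 31 were at an unadjusted p under 0.05, of which 9 were wider in old post, and 0.0621% of all 12890 regions passed as lower and 0% as higher. With total bases of all peaks as the measure 22 of 37 were wider, and without old post 4 27 of 44, so the direction of the lean depended on the settings. The smallest adjusted p was 0.141, in Csrnp1, at −0.89 ± 0.16, where the peak measured 2727, 2892, 2727 and 2865 bp in young post and 1457, 1431, 1649 and 560 bp in old post. A second domain at the other side of Csrnp1 measured 3369 to 3473 bp in young post and 2085 to 3312 bp in old post. Bcl6, a repressor gene, and Hnrnpab, an RNA-binding protein gene, followed with differences of −1.22 and adjusted p of 0.153 and 0.163. Leaving out old post 3 brought 5 domains past the threshold, and leaving out old post 1, 2 or 4 brought 1, 2 and 2, all narrower in old post.

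For summit height in old against young post libraries, 18 of 268 domains were at an unadjusted p under 0.05. On the shared days 5 and 6, which hold old post 3 and 4 and all young post libraries, 6 of 268 passed as lower in old post, 2.24% against 1.99% of all 12891 regions, and 0 as higher, against 0.721%. They were Nfkbiz (−0.16), Gata2 (−0.15), Hspa8 (−0.10), Dusp1 (−0.09), Brd2 (−0.09) and Pnrc1 (−0.09), named after their values were seen. Over all 8 libraries these differences lay between −0.07 and −0.01, with adjusted p from 0.624 to 0.964. On these days 2 domains passed for width as lower, 0.746% against 0.496% of all regions.

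Within the gene lists, 1 call was made in these 8 tests outside the shared-day fits at a housekeeping gene (Hspa8) and 1 at a Hox gene (Hoxa3). Of the 31 domains of immediate early genes, 24 to 29 could be read in a comparison and 0 passed in any of the 8. Their median width difference was 0.06 for young post against young pre and 0.03 for old post against old pre, against 0.12 and 0.08 over all domains read. For old pre against young pre it was 0.10 and for old post against young post 0.03, against −0.02 and −0.05. At Ier2 the width difference was −0.45 ± 0.31 between young stages (limma adjusted p = 0.522) and −0.19 ± 0.29 between old stages (0.898). Of the 20 domains of HSC transcription factors, 11 to 14 could be read, and 0 passed, with median width differences of 0.24 and 0.20 between stages. Gata2 differed in width by 1.16 ± 0.33 (limma adjusted p = 0.227) between young post and young pre.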

How the data were processed

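The deposited files are narrowPeak lists, called by the authors separately for each of the 16 libraries with Genrich on build mm10, per the submitters' processing notes, which also name FastQC, MultiQC, Trim Galore, cutadapt, ChIPseeker, featureCounts and DESeq2. Neither aligner, versions nor settings were stated (not given in the sources used here). Column 7, the authors' score, is the caller's area for a peak, 200 or slightly more at its lowest. As deposited, column 8 holds the −log10 p of a summit and column 9 its −log10 q. None of the deposited values is normalised between libraries. Width is column 3 minus column 2. Read counts are not in use here, so the depth is unknown and only list length (5711 to 32557 peaks) stands for it.

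Peaks off chromosomes 1 to 19 and X (393 of 387029, 0.102%) were left out of the domains. Genes came from the RefSeq table of GRCm38.p6 (21631 protein-coding), and start sites from its promoter table. The members and the gene lists were chosen with earlier results of these data known. Named domains are the 12 widest by median, those at listed genes up to 8 per list, those past a test (5 per direction), the 3 just inside and 3 just outside the rule, the 5 widest without a gene end within 1 kb, and the 3 most and 3 least variable. The values of 2 genes of the lists are not reported here. A domain with several gene ends was named by the nearest or by a listed gene in it.

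Groups were compared with limma 3.58.1 in R 4.3.3 (trend, 8 libraries of the 2 groups, regions called in all 8, quantile normalisation, Benjamini-Hochberg threshold 0.05). Post against pre had the donor as a block, since the series design pairs them. Deviations of paired libraries from their group means correlated at −0.20 to 0.47 (old) and −0.04 to 0.05 (young) for width. Old against young had no block, since no label links their numbers. In simulated data with 200 changed regions, a log2 width shift of 1 was recovered in 69.0% for young post against young pre (8992 regions). A width shift of 0.5 was recovered in 0% there. The changed regions were drawn from all regions tested and not from the domains alone. Domain widths varied more between libraries (median SD 0.369 against 0.227), and recovery among domains was not measured. For summits in that comparison, a shift of 0.25 was recovered in 95.5% and a shift of 0.1 in 0%. Alternatives to the width and library minimums, normalisation, measure, block, day, filter and replicates were tried. Python 3.11.15 with numpy 2.4.6, pandas 2.3.3, scipy 1.17.1 and matplotlib 3.10.9 did the rest.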

Additional observations from a re-analysis of the deposited data

Results flagged for a closer look

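Each of the 12 widest domains was looked at in each of the 4 groups by Dixon's criterion, which flags about 1 group in 20 by chance. Of these sets of 4 libraries, 7 held a library far from the other 3. In 4 of them this was old post 4, the library with the shortest list of its group, in which Fosb measured 5353 bp, Dusp1 4282 bp, Egr1 3959 bp and Ier2 3812 bp, against 6683 to 10432 bp in the other old post libraries for these genes. Young pre 4, the shortest list of its group, had an Ier2 width of 3935 bp against 10302 to 10598 bp, and old pre 4 an Inka1 width of 1550 bp against 7270 to 8270 bp. In young post 1 the Brd2 domain measured 6904 bp against 7023 to 7045 bp, a gap that is large only beside the narrow spread of that group.

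A further signal lay outside chromosomes 1 to 19 and X. There 81 peaks of 2500 bp or wider were called over the 16 libraries, on a single unplaced scaffold in each library, the widest with 19101 bp in young pre 2. None lay on chromosome Y, and no comparison used them.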

How the results depend on the processing

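The number of domains follows the thresholds: 1331 at 2000 bp, 293 at 3000 bp and 340 with 8 or more broad libraries, against 569, while leaving out any library gave 517 to 569. The share at gene ends was 86.3% with all genes of the table and 81.2% at 3000 bp, against 76.6%. Where a count of passing domains moved, the cause was not tested. For summits of old post against old pre it was 0, then 4 with median centring, 6 without the replicate block and 1 with domains broad in 2 or more other libraries, a looser choice that reads more domains. For young post against young pre the width count of 0 became 1 with that choice. The summit count of 6 became 13 with it, 3 without the replicate block, 3 with regions called in 6 or more libraries, and 2 to 19 with a library left out, and Rn18s-rs5 turned to −0.19 with median centring. For old pre against young pre the width count of 0 became 2 with day as a covariate and 3 on the shared day. The summit count of 1 became 0 with −log10 q, day as a covariate, the shared day or regions in 6 or more libraries, and 0 to 1 with a library left out. For old post against young post the width count of 0 became 1 with total bases, 2 on shared days, 1 with the looser choice and 0 to 5 with a library left out. The summit count of 0 there became 5 with day as a covariate and 6 on shared days. With the replicate number as a block, the old against young counts stayed at 0, 1, 0 and 0, so it changed no call count. Of the single calls, 40 alternatives ended one and 52 kept it. The 52 include the looser choice, which repeats the same fit for each call. For post against pre, leaving out either library of a pair is nearly the same test, yet both are counted. The number and length of the lists limit the precision, and depth is unknown.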

Other observations

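A domain inside Sfi1 (chr11:3190814-3197120), a gene of centrosome structure, over the pseudogene Fau-ps2, was among the 3 whose normalised width varied most (SD 0.98 on the log2 scale). It measured 1665, 3344, 2850 and 2492 bp in young pre, 2074, 1214, 2434 and 4470 bp in old pre, 1417, 1551, 1515 and 1180 bp in young post and 1949, 1801, 1526 and 4589 bp in old post. The widest were those of old post 4 and old pre 4, where the median domain measured 1238 and 654 bp. The handling of reads that match several places was not given, and its part in these widths was not tested.

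The Srgn domain (chr10:62497298-62509480), at the gene of the proteoglycan serglycin of blood cell granules, varied as much, from 301 bp in old pre 4, the shortest list, to 9854 bp in young pre 1. In the 4 young post libraries it measured 6952, 7104, 7107 and 6542 bp, and in old post 2455, 4321, 6404 and 1274 bp. Every young post value was thus above every old post value. Width chose the domain, so this is a description, and the share of all regions with such a gap was not counted. Among the domains without a gene end within 1 kb, that inside Plec, a gene of a cytoskeletal linker, measured 5174, 5255, 5270 and 5186 bp in young post and 5133, 5151, 5275 and 1901 bp in old post, but 5270, 2891, 2525 and 963 bp in young pre and 2435, 5149, 2287 and 964 bp in old pre.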
